A study of Homo sapiens with 6 samples.

Results

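The regions described here are stretches of the genome that carried an H3K4me2 peak after 4 h of GSK2879552 and in neither of the other conditions of the study. They were chosen by their presence or absence in the deposited peak lists. The peaks (records) of the 3 lists on chromosomes 1 to 22 were pooled, those overlapping by 1 bp or more were merged into union regions, and a union region was kept where it held a GSK 4 h record and neither a vehicle nor a GSK 24 h record. This gave 21352 of 147111 union regions, 14.5% of the union (95% Wilson interval 14.3 to 14.7). Each of them holds exactly 1 GSK 4 h record.

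H3K4me2 was profiled by ChIP-seq in LNCaP, an androgen-responsive prostate cancer (PCa) line. The cells had been kept for 3 days in 5% charcoal-stripped serum, which is depleted of androgens. There were 3 groups of 2 replicates, all immunoprecipitated with the same antibody lot: vehicle without GSK2879552, GSK 4 h and GSK 24 h. Per the sample labels, both GSK groups also received the androgen DHT, whereas the treatment protocol names the inhibitor alone, so androgen and inhibitor cannot be told apart in any difference from vehicle. The authors combined both replicates of a group into 1 list. In the labels both carry the same library index, and nothing says that they came from separate cultures. There is thus no replicate value behind any region, no difference between conditions could be tested, and every interval given here covers counting error only.

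LSD1 (KDM1A) removes mono- and dimethyl groups from lysine 4 of histone H3 with the help of the cofactor FAD. It works within repressor complexes with CoREST and histone deacetylases, and in PCa cells it is also a coactivator of the androgen receptor. H3K4me2 marks promoters and enhancers, and GSK2879552 inactivates LSD1 by binding covalently to its FAD. Regions seen at an early time alone address whether the mark appears at sites that are lost again by the next day.

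The regions seen at 4 h only made up 17.2% of the 124364 GSK 4 h records (interval 17.0 to 17.4). A similar share of the GSK 24 h list, 16.9% of 123292 records, was found at 24 h only. In the vehicle list, 8.28% of 97240 records were found in no other list. The vehicle list is the shortest of the 3, and the shares came together when each list was cut to its 97240 strongest records by p-value. The share at 4 h only was then 13.1% (12.9 to 13.3), against 12.6% for 24 h only and 12.7% for vehicle only. This depended on how the lists were cut. With all lists held to a -log10 q of 10 or more, the shares were 17.3% (16.99 to 17.6) for 4 h only, 13.02% for 24 h only and 9.24% for vehicle only. There a record also counts where its counterpart only fell under 10, and the lists again differ in length. Against the full other lists, 1.25% of these 55507 GSK 4 h records had no counterpart. It was 1.07% of 51558 for GSK 24 h and 2.67% of 44348 for vehicle.

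In their own list the 4 h only regions were weak. Their median -log10 q, the caller's significance after adjustment, was 4.25 (interquartile range 3.50 to 5.87). The 77894 GSK 4 h records that were present in all 3 lists had a median of 14.04 (8.17 to 24.7). The median fold enrichment over background was 3.88 (3.47 to 4.51) at the 4 h only regions and 5.73 (4.51 to 7.29) at the records of all 3 lists. Within the GSK 4 h list the 4 h only regions stood at a median fold percentile of 24.99, and 26 of the 21352 were in its top 10%. These values come from the list that chose the regions and are given as a description.

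**Figure D1:**
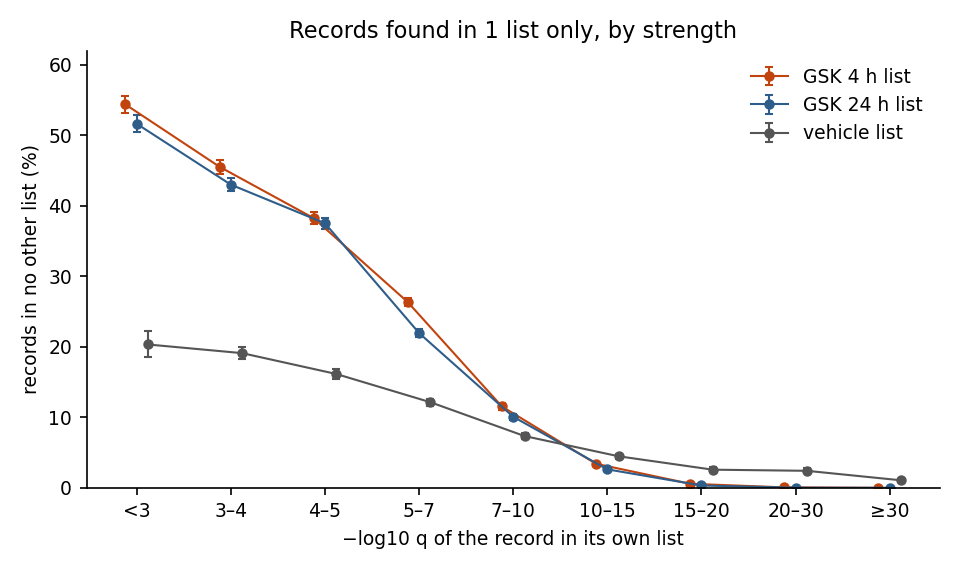
Share of the records of each list that overlap no record of the other lists (y axis, percent), by the -log10 q of the record in its own list (x axis, bins), with 95% Wilson intervals. For the GSK 4 h list the share falls from 54.4% under 3 to 0.0663% between 20 and 30, and it crosses under the vehicle line from 10 upwards.

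The share of GSK 4 h records seen at 4 h only was smaller the stronger the records were. Under a -log10 q of 3 it was 54.4% (53.2 to 55.6), between 5 and 7 it was 26.3% (25.8 to 26.9), and between 10 and 15 it was 3.41% (3.16 to 3.69). Of the 26251 GSK 4 h records with a -log10 q of at least 20, 8 were seen at 4 h only. None of the 14176 with a -log10 q of at least 30 was, a count of 0 with an upper Wilson bound of 0.0271%. The 24 h only regions followed nearly the same course, with 2 of 21137 records at 20 or more. The vehicle list behaved otherwise. There, 346 of 22421 records with a -log10 q of at least 20 were in no other list, 1.54% against 0.0305% for GSK 4 h, and 155 of them reached 30. The strongest vehicle only region had a -log10 q of 112, and the strongest 4 h only region one of 26.0. Since q-values are not normalised between lists, these are values side by side. Strong regions without a counterpart were rare in the GSK 4 h list. The classes are not alike, since a 4 h only region must also be absent from the other GSK list. Of the GSK 4 h records shared with GSK 24 h alone, and so absent from vehicle, 127 had a -log10 q of at least 20.

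The strength can be read in fragments. A whole number of fragments over the summit (the pileup) and a background were recovered from the fold and p-value of every GSK 4 h record. The median 4 h only region had 12 fragments over its summit (interquartile range 10 to 16). The records in all 3 lists had 30 (19 to 55), and those shared with GSK 24 h alone had 14 (12 to 19). Those shared with vehicle alone had 16 (12 to 24). Thus the 4 h only regions lay close below the records shared with GSK 24 h alone. They lay far below the records in all 3 lists, which were also present at 24 h.

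**Figure D2:**
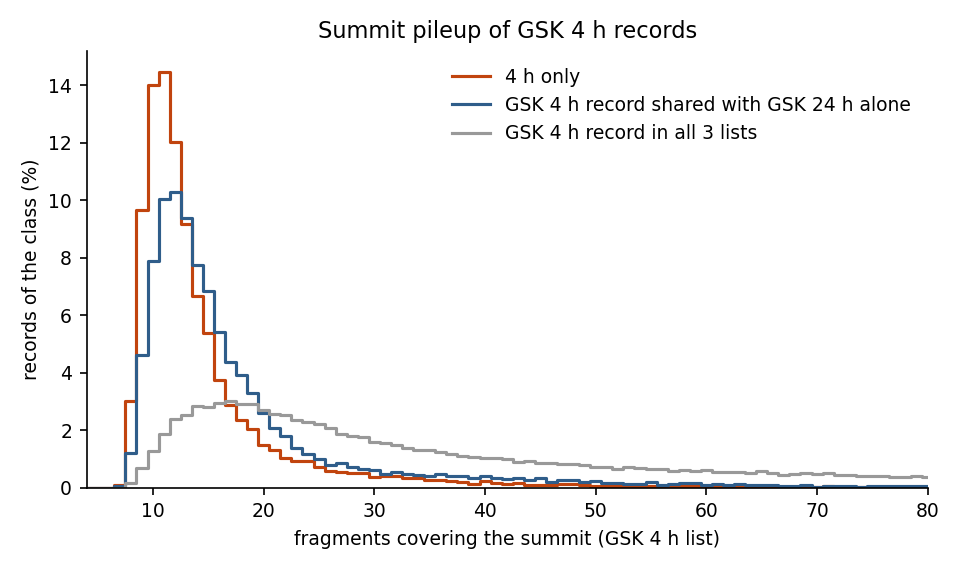
Summit pileup (x axis, fragments covering the summit in the GSK 4 h list, shown from 4 to 80) of 3 classes of GSK 4 h records, as percent of the class (y axis). The 4 h only regions have a median of 12 fragments, the records shared with GSK 24 h alone a median of 14 and the records in all 3 lists a median of 30.

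The background of 11297 of the 4 h only regions, 52.9% (52.2 to 53.6), was 1.88 fragments, the lowest in the list and taken as the genome-wide level. Among the records in all 3 lists this share was 16.5% (16.3 to 16.8), and among those shared with GSK 24 h alone 48.7%. At the lowest background of their own lists stood 55.7% of the 24 h only and 44.9% of the vehicle only regions. At a flat background of 1.88 fragments the fold depends on the pileup alone. Of these 11297 regions, 8091 (71.6%) had a summit of 9 to 12 fragments. The share of such GSK 4 h records seen at 4 h only moved down with each step, from 61.1% of 969 records with 8 fragments to 43.7% of 5149 with 11 fragments and 12.4% of 1764 with 16. Of 264 records with 24 fragments, 4 (1.52%) were seen at 4 h only.

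The distance to the threshold was measured as the number of fragments a summit could lose, with its background kept, before its -log10 p fell under the lowest of the list (2.95). For the 4 h only regions the median was 5 fragments (4 to 8), and for the records in all 3 lists it was 19 (11 to 37). The counting SD of a pileup is its square root. In 3731 4 h only regions (17.5%) the margin was within 1 such SD, and in 4304 (20.2%) it was more than 2 SD. It was more than 3 SD in 450 regions (2.11%), against 61.4% of the records in all 3 lists. For the 24 h only regions the median was also 5 (4 to 7) and the share past 3 SD was 1.58%. The vehicle only regions had a median of 7 (5 to 10), and 11.9% of them were past 3 SD. Most regions seen at 4 h only were therefore a few fragments above the point where a list stops.

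The 4 h only regions were also short. Their median length was 242 bp (198 to 318), against 632 bp (400 to 920) for the GSK 4 h records in all 3 lists. This was shared by the other regions found in 1 list only. The median was 279 bp (232 to 361) for 24 h only and 283 bp (234 to 374) for vehicle only. The shortest record measured 186 bp at GSK 4 h, 221 bp under vehicle and 219 bp at GSK 24 h, so the lists differed in the shortest peak they could hold. Of the 4 h only regions, 8088 or 37.9% (37.2 to 38.5) were shorter than 219 bp and thus than any record of the other lists. This share was 4.45% (4.30 to 4.59) for the records in all 3 lists and 21.6% (21.01 to 22.2) for those shared with GSK 24 h alone. A longer record has more room to overlap another list, so length is tied to the rule. These lengths are given as a description.

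**Figure D3:**
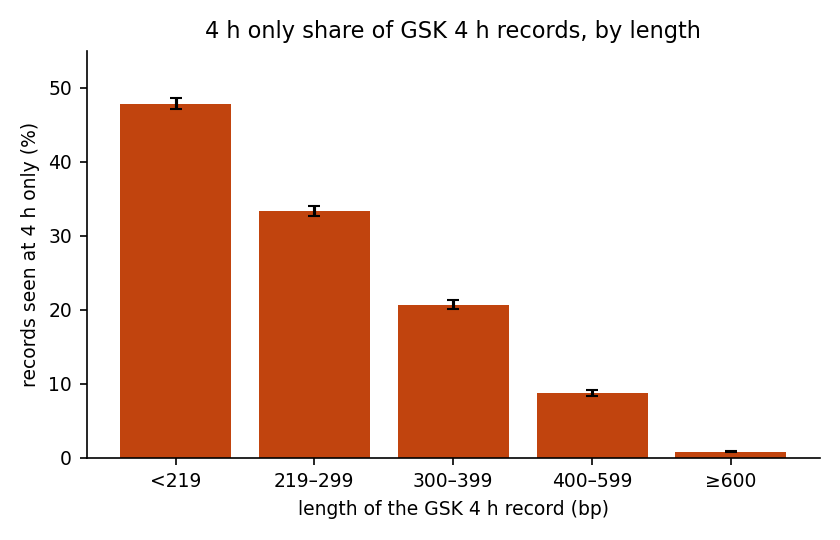
Share of GSK 4 h records seen at 4 h only (bars, percent) by record length (x axis, bp), with 95% Wilson intervals. The share is 47.8% for records under 219 bp, the shortest length in the GSK 24 h list, and 0.828% for records of 600 bp or more. Length is tied to the overlap rule that chose the regions.

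The share seen at 4 h only was 47.8% (47.1 to 48.6) under 219 bp, 33.3% (32.7 to 34.0) from 219 to under 300 bp, and 8.75% (8.40 to 9.11) from 400 to under 600 bp. At 600 bp or more it was 0.828% (0.747 to 0.917), or 362 of 43720 records. Part of this fall is built into the overlap rule, which a longer record fails more easily, and that part was not measured. When records under 221 bp were left out of all 3 lists, a setting chosen after seeing the data, 13933 regions were seen at 4 h only. They were 13.04% of the GSK 4 h list, under the 17.2% for 24 h only (20042 regions) and above the 9.58% for vehicle only (9320). The near equality of the 4 h and 24 h shares thus did not hold in this setting. The filter also took out short counterparts of the other lists' records. Vehicle only regions rose from 8051 to 9320 with the vehicle list unchanged, and the lists stayed unequal, at 106840 (GSK 4 h) and 116694 (GSK 24 h) records. The part of the shortest peak length in the full lists was not otherwise tested.

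Regions seen at 4 h only lay at all distances from the other lists. The gap to the nearest vehicle or GSK 24 h record had a median of 3414 bp (339 to 11008). It was less than 1 kb for 7878 regions, 36.9% (36.3 to 37.5), 1 to 5 kb for 4258, 5 to 20 kb for 6544, and at least 20 kb for 2672, 12.5%. For the 24 h only regions, 33.5% (32.9 to 34.2) lay within 1 kb and 18.2% at 20 kb or more. For the vehicle only regions the shares were 36.2% (35.2 to 37.3) and 9.61%.

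**Figure D4:**
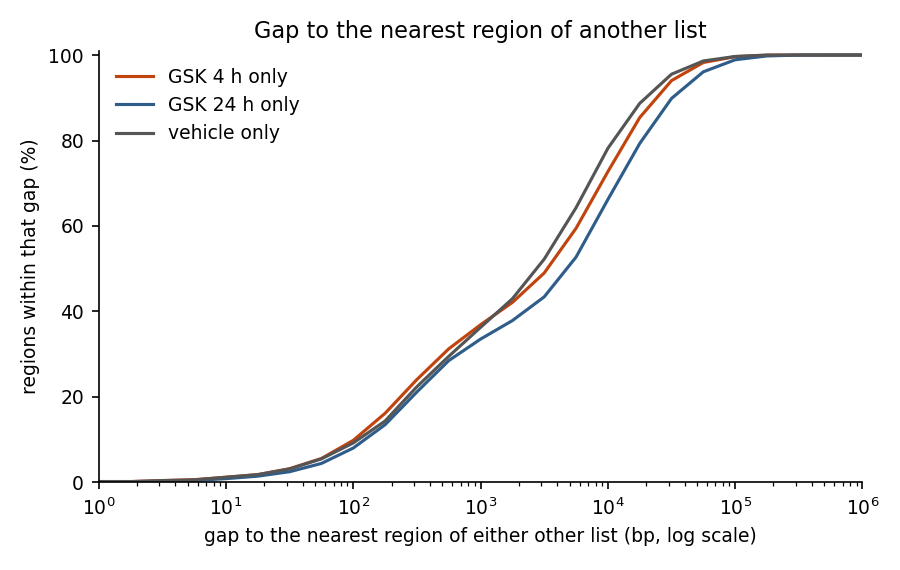
Cumulative share of the regions found in 1 list only (y axis, percent) by the gap to the nearest region of either other list (x axis, bp, log scale). At 1 kb the 4 h only line stands at 36.9% and the 24 h only line at 33.5%.

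Among the 7878 regions within 1 kb, the neighbouring record was itself covered by a GSK 4 h record in 5112 (64.9%, interval 63.8 to 65.9). These are extra peaks at the side of a region that the GSK 4 h list also holds. In the remaining 2766 (35.1%) the neighbour was missing from the GSK 4 h list. These neighbours, chosen by their absence at 4 h, were weak in their own lists. The 2163 GSK 24 h neighbours missing at 4 h had a median -log10 q of 4.26, against 8.18 for the GSK 24 h list. The 1025 such vehicle neighbours had 4.94, against 8.96 for the vehicle list. Other-list records stood within 1 kb on both sides of 875 regions (11.1%). These had higher summits, with a median of 23 fragments, but a median -log10 q of only 5.05.

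The neighbour came more often from the GSK 24 h list than from the vehicle list. A GSK 24 h record lay within 1 kb of 33.6% (33.0 to 34.3) of the 4 h only regions and a vehicle record within 1 kb of 24.5% (23.9 to 25.05). Within 1 kb, 2654 regions had a GSK 24 h record alone and 696 a vehicle record alone. This preference went with list length. For the 12740 regions seen at 4 h only in lists of equal length, the shares were 27.1% (26.4 to 27.9) for GSK 24 h and 26.9% (26.1 to 27.6) for vehicle.

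Adjacent and isolated regions differed in their recovered background more than in their -log10 q. Within 1 kb of another list's record the median background was 2.57 fragments, the median pileup 14 and the median -log10 q 4.51. At 20 kb or more these were 1.88, 11 and 4.25, and 93.3% (92.2 to 94.2) of the isolated regions had the genome-wide background, against 29.2% (28.2 to 30.2) of the adjacent ones. This share was 28.1% at 1 to 5 kb and 81.1% at 5 to 20 kb. The local background was assumed to be taken over a window of 10 kb, since the caller's settings are not named. No input control is named either. Tags of a neighbouring peak could then enter the local background, and their part was not tested. A -log10 q of at least 10 was reached by 323 adjacent regions (4.10%, interval 3.68 to 4.56) and by 80 isolated ones (2.99%, 2.41 to 3.71). In all, 693 of the 4 h only regions (3.25%) reached it.

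At the edge of the rule, 20 of the 4 h only regions touched a record of another list without overlapping it. Their median pileup was 13 fragments and their median -log10 q 4.25. Just outside the rule, 19 GSK 4 h records overlapped another list by a single base. They had a median pileup of 12 fragments and the same median -log10 q.

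The 10 regions with the highest fold enrichment show what the upper end of this class looks like. All positions are in hg19. The first was found on chromosome 13 from 74258889 to 74259198. Its fold enrichment was 10.4 and its -log10 q 22.3, with 29 fragments over a background of 1.88. The nearest vehicle and GSK 24 h records were 16189 and 16298 bp away. It spanned 310 bp and had a margin of 23 fragments. The second, on chromosome 11 from 48496348 to 48496680, reached a fold of 9.37 with 26 fragments. Its nearest vehicle record was 58144 bp away and its nearest GSK 24 h record 19587 bp.

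The third, on chromosome 3 from 99628630 to 99628975, lay close to records of both other lists. It had a fold enrichment of 9.07 and 30 fragments, but a GSK 24 h record lay 4 bp away and a vehicle record 42 bp away. The fourth, on chromosome 5 from 5510982 to 5511465, again stood apart, at a fold of 9.02, 28 fragments and gaps of 15731 bp (vehicle) and 15730 bp (GSK 24 h).

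The fifth and sixth had the same fold enrichment, 8.97, with 25 fragments each. They lay on chromosome 14 from 52019269 to 52019719 and on chromosome 15 from 52068298 to 52068589, and their nearest records, from the GSK 24 h list, were 4923 and 3691 bp away. The seventh, on chromosome 11 from 1363186 to 1363598, had a fold of 8.81 and a vehicle record 5211 bp away. The last 3 shared a fold enrichment of 8.67 and a pileup of 24 fragments. They lay on chromosome 10 from 55520612 to 55521114, on chromosome 12 from 85666997 to 85667755 and on chromosome 20 from 19642825 to 19643359. The one on chromosome 10 was the most isolated of the 10, with the nearest GSK 24 h record 82806 bp and the nearest vehicle record 125094 bp away. The fold percentiles of the 10 regions within the GSK 4 h list ran from 92.04 to 96.9.

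By -log10 q the top regions were different ones, chosen after their values were seen. The first, on chromosome 20 from 48225196 to 48225629, had a -log10 q of 26.0 with 55 fragments over a background of 7.57, and records of both other lists lay within 1684 bp. The second, on chromosome 8 from 145697356 to 145697772, had 77 fragments over a background of 16.03, with a fold enrichment of only 4.58 and a vehicle record 226 bp away. The third, on chromosome 10 from 5664939 to 5665271, had a -log10 q of 22.4 with 36 fragments over a background of 3.35. Its fold of 8.51 was near those of the 10 above, and a vehicle record lay 18 bp away.

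The longest 4 h only region spanned 1269 bp on chromosome 4 from 143394980 to 143396248, and its 18 fragments gave a fold of 5.68. It lay 181 bp from a vehicle record and 199 bp from a GSK 24 h record. The next, 1196 bp on chromosome 2 from 114512735 to 114513930, had 30 fragments over a background of 7.76 and so a fold enrichment of only 3.54. The next longest, 1107 bp on chromosome 7 from 26809432 to 26810538, had 20 fragments and a gap of 16912 bp to the vehicle list.

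Of the 3 regions farthest from any other record, 2 lay under the median strength of the 4 h only regions and the last was at it. The first lay on chromosome 6 from 128579900 to 128580233, 232270 bp from a vehicle and 232389 bp from a GSK 24 h record. It had 9 fragments and a margin of 3. The second, on chromosome 21 from 32228228 to 32228453, had 8 fragments and a margin of 2, with the nearest record 206683 bp away. The next, on chromosome 17 from 52107335 to 52107609, had 11 fragments, a -log10 q of 4.25 and a margin of 5, with the nearest record 206232 bp away.

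The 4 h only regions were spread over all 22 chromosomes. Their share of the GSK 4 h records ran from 11.04% (10.1 to 12.03) on chromosome 19 to 20.3% (18.3 to 22.3) on chromosome 21, around the 17.2% of the whole list. Chromosomes 17 (14.5%) and 16 (14.7%) came next above chromosome 19, and their intervals overlapped each other. Chromosome 19, which is rich in genes, also had the strongest GSK 4 h records, with a median -log10 q of 15.3 and 45 fragments. On chromosome 21 these medians were 7.61 and 20.

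**Figure D5:**
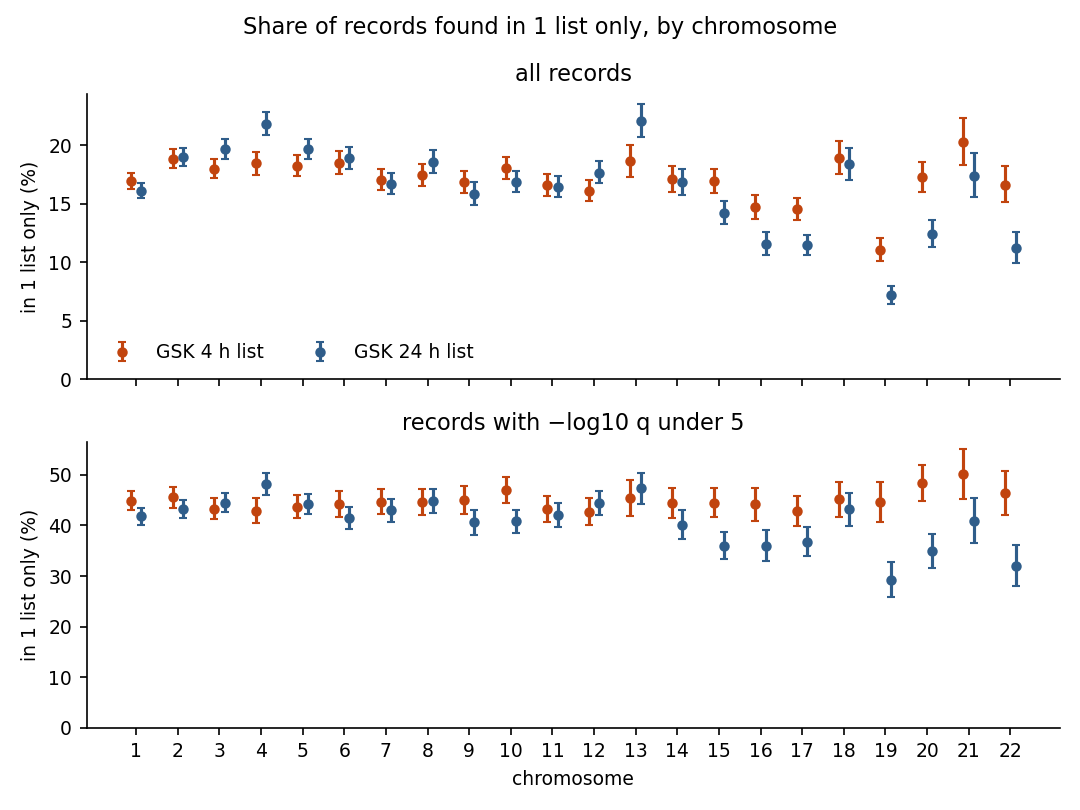
Share of records found in 1 list only (y axis, percent, 95% Wilson intervals) by chromosome (x axis) for the GSK 4 h and GSK 24 h lists, for all records (top) and for records with a -log10 q under 5 (bottom). Chromosome 19 is lowest for both lists in the top panel at 11.04% and 7.16%, whereas in the bottom panel its GSK 4 h share is 44.6% and its GSK 24 h share 29.2%.

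In the GSK 4 h list the low share on chromosome 19 went with its few weak records. Of the GSK 4 h records on chromosome 19, 14.6% had a -log10 q under 5, and of those 44.6% (40.7 to 48.5) were seen at 4 h only. On the other 21 chromosomes together, 44.6% (44.0 to 45.2) of the weak records were. Among weak records the 4 h only share on chromosome 19 was thus that of the rest of the genome. The vehicle list differed. There 13.6% of the chromosome 19 records were weak, but 8.85% were vehicle only, against 8.26% on the other chromosomes. Among weak vehicle records these shares were 22.9% (19.5 to 26.7) and 17.8% (17.2 to 18.3). For weak GSK 24 h records the values lay apart, and 29.2% (25.8 to 32.8) were seen at 24 h only on chromosome 19, against 42.2% (41.7 to 42.8) on the other chromosomes. Chromosomes 22 (31.9%) and 20 (34.9%) were also low at 24 h, where the 4 h shares were 46.4% and 48.4%. Chromosomes 15 (36.0%), 16 (36.0%) and 17 (36.8%) followed closely at 24 h, with 4 h shares of 44.5%, 44.2% and 42.8%.

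After these values were seen, the contrast was looked at again in 2 settings and was present in both. With records under 221 bp left out, weak records on chromosome 19 were seen at 4 h only in 40.7% (35.7 to 45.9) and at 24 h only in 28.3% (24.5 to 32.3). The other chromosomes had 41.2% and 44.4%. With lists of equal length, few weak records remained in the GSK 4 h list, and 16 of 45 on chromosome 19 (35.6%, interval 23.2 to 50.2) were seen at 4 h only, against 39.9% elsewhere. For GSK 24 h, 40 of 145 (27.6%, 20.96 to 35.4) were, against 43.7% elsewhere. The intervals at 4 h and 24 h on chromosome 19 did not overlap over the full lists, but did with lists of equal length, and no test between conditions could be made.

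Among themselves, the 4 h only regions were mostly solitary at short range. Joined within 10 kb, 15976 of the 21352 remained single and 5376 (25.2%) fell into groups, of which the largest held 8. Joined within 50 kb, 62.7% fell into groups, and 22 groups held 10 or more. The same spacing was not computed for all GSK 4 h records, nor for the 24 h only or vehicle only regions. Whether it is particular to the 4 h only regions was thus not tested. The groups named next were picked for their number of regions, after the values were seen, so their counts are a description.

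The largest group spanned 491 kb on chromosome 21 from 17455312 to 17946230. It held 31 regions seen at 4 h only among 70 GSK 4 h records, against 45 vehicle records (9 of them vehicle only) and 53 GSK 24 h records (14 of them 24 h only). Its regions had 8 to 33 fragments over the summit, with a median of 17 and a median background of 4.63. Only 5 of the 31 had the genome-wide background. The second spanned 313 kb on chromosome 4 from 101966127 to 102279146, with 23 regions among 50 GSK 4 h records. There the vehicle list had 34 records and the GSK 24 h list 29. The median pileup was again 17 fragments, and the median length of 220 bp lay under that of all 4 h only regions.

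The next group, on chromosome 5 from 69699647 to 70046969, held 18 regions among 50 GSK 4 h records, with 23 vehicle and 34 GSK 24 h records. It reached the highest summit of these groups, at 63 fragments. A group on chromosome 17 from 55502154 to 55847780 held 15 regions among 35 GSK 4 h records, with 21 vehicle and 27 GSK 24 h records. Last, on chromosome 2 from 189150057 to 189383077, 15 of 26 GSK 4 h records were seen at 4 h only, with 12 records in each of the other lists. In each of these 5 stretches the GSK 4 h list had more records than either other list. The stretches were picked for GSK 4 h records without a counterpart, so this excess is no result about them. Over chromosomes 1 to 22 the GSK 4 h list was also the longest, with 124364 records against 97240 (vehicle) and 123292 (GSK 24 h).

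The genes, start sites and sequences under the 4 h only regions were not analysed here, since no genome or annotation in hg19 was used. For the same reason the luminal identity of the cells was not checked at its marker genes.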

How the data were processed

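H3K4me2 ChIP-seq of LNCaP cells was analysed from 3 deposited peak lists, each made by the authors from both replicates of a group. The submitters' processing notes name BWA 0.7.2-r351, SAMtools 0.1.18 and MACS2 2.0.10.20131216 on hg19, without settings or an input control. The deposited values are the fold enrichment over background, the p-value and q-value on a -log10 scale, and a score for display. The authors did not normalise them between lists, as far as the sources say. No gene could be named and no motif searched, because the reference at hand was of another build.

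Union regions were built on chromosomes 1 to 22, with touching records kept apart. A summit pileup and background were recovered for each record from its fold and Poisson p-value (tolerance 0.001 in -log10 p), which succeeded for 100% of both GSK lists and all but 2 vehicle records. The lowest recovered background of each list was 2.08 (vehicle), 1.88 (GSK 4 h) and 1.97 (GSK 24 h) fragments. Divided by the shortest record length of the list, it gave depths of 9.43, 10.1 and 8.98 tags per kb. This takes the shortest record as the fragment length, which was not checked, and the order of the lists depends on it. Duplicates cannot be seen. Shares have Wilson intervals at 95%. The overlap and pileup steps were tested on simulated data. Python 3.11.15, pandas 2.3.3, scipy 1.17.1 and statsmodels 0.14.6 were used.

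The regions, lists and settings were chosen with earlier results of these data known. Named regions are the 10 with the highest fold, the 3 longest and the 3 farthest from other lists. The planned start site, GC, CpG, repeat, motif and gene list values were not run. Alternatives were stricter q-values, equal list lengths, joining within 1 kb, 50% coverage, chromosomes X and Y, other rankings and a minimum length.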

Additional observations from a re-analysis of the deposited data

Results flagged for a closer look

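Sequences outside chromosomes 1 to 22 were not part of the regions described, and 2 values there stood above the same value in the vehicle list. On X and Y, 19.6% of 3770 GSK 4 h records (95% interval 18.3 to 20.9) overlapped no record of another list, against 8.05% (7.09 to 9.13) of 2757 vehicle records and 22.1% (20.8 to 23.4) of 3897 GSK 24 h records. On the haplotype, unplaced and other sequences, 27.5% (25.4 to 29.7) of 1642 GSK 4 h records did, against 14.5% (12.6 to 16.6) of 1168 vehicle records and 17.8% (15.9 to 19.9) of 1363 GSK 24 h records. There the 4 h share stood above the 24 h share, whereas on chromosomes 1 to 22 they were 17.2% and 16.9%.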

How the results depend on the processing

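No paired analysis was possible because the replicates of a group share 1 list, nor could a replicate be left out. The number of regions seen at 4 h only, 21352, stayed within 1.5 times that count with all lists held to a -log10 q of 5 or more, with 50% of the record covered and with X and Y included. It was 9606 with all lists held to a -log10 q of 10 or more, 12740 with lists of equal length, 12672 with records within 1 kb joined and 13933 with records under 221 bp left out. Of the GSK 4 h records, 693 that reached a -log10 q of 10 and 8 that reached 20 overlapped nothing in the full other lists. The last 2 kinds of setting, the minimum length and the value of 20, were chosen after seeing the data.

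The share of the GSK 4 h list, 17.2%, was 13.1% with equal lengths, 10.7% with 1 kb joined, 23.6% with 50% covered and 13.04% with the minimum length. The following medians are given in the order fold, -log10 q, length and fold percentile. They were 4.84, 6.59, 313 bp and 31.6 from a -log10 q of 5, and 6.59, 12.4, 516 bp and 46.6 from 10. They were 4.62, 6.08, 295 bp and 28.8 with equal lengths, and 4.09, 4.78, 265 bp and 28.3 with 50% covered. With 1 kb joined, fold, length and percentile were 4.16, 252 bp and 29.6. With the minimum length, fold, -log10 q and length were 4.16, 5.05 and 298 bp. Ranked by -log10 p, the percentile was 17.1.

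The share within 1 kb of another list, 36.9%, was 27.8% and 20.03% from a -log10 q of 5 and of 10, 33.3% with equal lengths, 54.2% with 50% covered and 33.7% with the minimum length. Joining within 1 kb leaves no such region by construction. Within 5 kb the share was 56.8%. With X and Y included no value left its interval. The median fold percentile stayed under the middle of the GSK 4 h list in every setting for which it was computed, whereas single regions reached 96.9. With a median of 12 fragments at a summit, depth limits what the absence of such a region from another list can show.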
